A study of Arabidopsis thaliana with 6 samples.

Results

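Arabinogalactan proteins are heavily glycosylated proteins of the plant cell surface, and the genes described here are the Arabidopsis members named AGP or FLA. They were all nuclear protein-coding genes whose primary symbol in the RefSeq gene table (assembly TAIR10.1) is AGP or FLA followed by a number: 49 of 27444 genes, of which 30 were AGP and 19 FLA. A gene was counted as having a peak in a replicate when a peak of that replicate's list overlapped the gene body or 1 kb on either side. Members were chosen by name, but the family itself was selected on the peak calls of these 3 lists, which were already known. Its counts and scores are therefore a description and carry no test.

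The peaks came from chromatin immunoprecipitation and sequencing (ChIP-seq) of EBS (EARLY BOLTING IN SHORT DAYS), a chromatin protein that delays flowering and reads methylated histone H3 tails. All 6 samples were whole Col-0 seedlings of the ebs shl double mutant, which lacks EBS and its relative SHL, carrying a FLAG-tagged EBS transgene under the native EBS promoter. Seedlings grew for about 10 days in long days (16 h light and 8 h dark), with no treatment. The 3 ChIP samples were precipitated with an anti-FLAG antibody and each has its own peak list; the 3 input DNA samples have no values of their own here. An anti-FLAG ChIP from untagged plants was not analysed here, so EBS binding and background that recurs in the procedure cannot be told apart. The labels do not say whether the replicates were grown separately, and their spread may be technical. A peak list from whole seedlings cannot separate strong binding in few cells from weak binding in many, and it offers no marker by which to check the tissue. The lists held 5237, 4216 and 3661 nuclear peaks in replicates 1, 2 and 3, and the sequencing depth behind them is unknown.

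A classical AGP has a backbone rich in hydroxyproline, alanine, serine and threonine that carries large branched galactan side chains with arabinose, and it is usually tied to the plasma membrane by a lipid anchor. AG peptides are short versions of this design, lysine-rich AGPs hold a short basic stretch, and fasciclin-like proteins (FLA) combine AGP stretches with fasciclin domains, which are known for cell adhesion in animals. AGPs are known for roles in cell expansion, pollen and pistil development and wall assembly, and several FLAs for secondary wall formation and root growth.

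EBS peaks were found at many of these genes. Among the 30 AGP genes, 14, 14 and 16 had a peak on the body or within 1 kb in replicates 1, 2 and 3 (46.7%, 46.7% and 53.3%). Among the 19 FLA genes, 7, 6 and 7 did (36.8%, 31.6% and 36.8%). Of all protein-coding genes, 20.8%, 17.1% and 11.7% had such a peak. Over the replicates the share was 48.9% ± 3.85 for AGP, 35.1% ± 3.04 for FLA and 16.6% ± 4.57 for all genes (SD, n = 3). The share of all genes was lowest in replicate 3, whereas the AGP share was highest there.

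**Figure D1:**
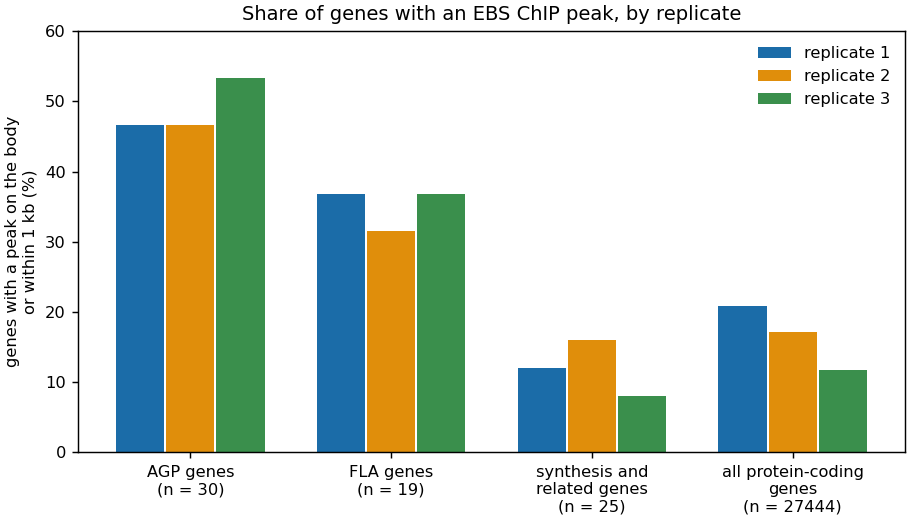
Percentage of genes with a peak on the body or within 1 kb, by replicate (bars), for 30 AGP genes, 19 FLA genes, 25 synthesis and related genes and all 27444 protein-coding genes. The AGP bars lie between 46.7% and 53.3% and the FLA bars between 31.6% and 36.8%, above the bars of all genes in each replicate.

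A peak in every list was found at 13 of the 49 genes (26.5%), against 6.09% of all protein-coding genes. They were AGP4, AGP5, AGP6, AGP7, AGP9, AGP11, AGP15, AGP16, AGP19 and AGP23 among AGP (10 of 30, 33.3%) and FLA8, FLA10 and FLA17 among FLA (3 of 19, 15.8%). A peak in at least 1 list was found at 29 of the 49 genes, against 31.7% of all genes, and no peak at 20, against 68.3%. In the class with 1 or 2 lists, 2 genes had a peak in replicate 1 alone, 1 in replicate 2 alone and 4 in replicate 3 alone, where 9.84%, 6.43% and 3.48% of all genes had. Each of the 3 pairs of lists alone was seen at 3 genes, against 3.67% of all genes for replicates 1 and 2, 1.21% for replicates 1 and 3 and 0.958% for replicates 2 and 3. No peak was counted for more than 1 of the 49 genes, and the closest pair, AGP24 and FLA20, lay 104882 bp apart.

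For a peak in every list, the difference in share between AGP and FLA, which was not tested, depended on the rule. On the body alone, 30% of AGP and 15.8% of FLA had one, against 3.75% of all genes. When every list had to reach a score of at least 100, 6 of 30 AGP (20%) and 3 of 19 FLA (15.8%) were left, against 3.36% of all genes. In replicate 3 by itself, 40% of AGP and 21.1% of FLA reached that score, against 5.83% of all genes. The score is the authors'. MACS 1.4 derives it from each peak's p-value on a log scale, so that a higher score is a smaller p. When a peak counted only for the protein-coding gene it overlapped most, the numbers were again 6 and 3, against 3.73% of all genes. In replicate 2 the peaks at AGP11, AGP19 and AGP23 overlapped a neighbour more. The replicate 1 peak counted for AGP16 did not overlap it and lay wholly on AT2G46320. Leaving out a list is a looser rule: without replicate 1 or without replicate 2, 12 AGP and 4 FLA genes had a peak in both other lists, against 7.05% and 7.3% of all genes. Without replicate 3 there were 11 AGP and 5 FLA genes, against 9.76%.

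The pollen pair AGP6 and AGP11 encodes classical AGPs required together for pollen tube growth, and both genes had strong peaks. The AGP11 peaks (AT3G01700) scored 3100 in all 3 lists, a level that 88, 97 and 46 nuclear peaks reached or passed in replicates 1, 2 and 3. Scores of 3100 and above were treated as tied, so genes at this level are not ranked among themselves. The AGP11 peaks formed a region on chromosome 3 from 258226 to 260639 (TAIR10, as all positions here). The AGP6 peaks (AT5G14380) scored 1078.32, 1020.21 and 1591.32 in replicates 1, 2 and 3, over chromosome 5 from 4635433 to 4637418. Within their lists these scores stood at percentile 92.8, 90.7 and 95.2 of nuclear peaks. Both genes thus had high scores in every list of a seedling sample. The wide replicate 2 peak at AGP11 overlapped its neighbour AT3G01710 by 1001 bp and AGP11 by 753 bp, the whole gene.

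Among the 11 classical AGP genes outside pollen, 4 had a peak in every list, 3 in 1 or 2 lists and 4 in none. AGP4 (AT5G10430), known as JAGGER for its role in the pistil after fertilisation, scored 3100 in all 3 lists. Its region spanned chromosome 5 from 3276730 to 3279186 and also took in AT5G10435. A score of at least 3100 in every list was seen at AGP4 and AGP11 alone of the 49 genes, and at 0.182% of all genes. AGP7 (AT5G65390) scored 2810.83, 2755.58 and 3100 over chromosome 5 from 26128041 to 26130952. AGP4, AGP7 and AGP11 therefore stood at or above percentile 97.2 of every list. AGP5 (AT1G35230) had middling scores of 62.15, 93.97 and 187.83 over chromosome 1 from 12916625 to 12917989, which were percentiles 66.5, 67.3 and 60.8. AGP9 (AT2G14890) was near the floor of the lists, with scores of 26.54, 29.55 and 21.64 over chromosome 2 from 6399380 to 6400646, where the lowest score of any nuclear peak was 20. AGP9 thus had a peak in every list that was weak in each.

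The other classical genes had fewer lists. AGP10 had scores of 36.42 in replicate 2 and 302.21 in replicate 3, AGP3 had 290.27 in replicate 3 alone, and AGP1 had 20.81 and 27.76 in replicates 1 and 2. AGP2, AGP25, AGP26 and AGP27 had none. AGP25 lay 2266 and 2246 bp from peaks that scored 3100 in replicates 1 and 2, which were mainly on its neighbour TLP11 and outside the 1 kb limit.

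Of the 3 lysine-rich AGP genes, AGP19 had a peak in every list, AGP17 in replicates 2 and 3, and AGP18 in none. AGP19 (AT1G68725), which is known for a role in cell division and expansion, scored 539.77, 858.65 and 672.65 over chromosome 1 from 25808643 to 25811242. That region also touched TADA, AT1G68723 and AT1G68730, and in replicate 2 it overlapped AT1G68730 by 860 bp against 833 bp, the whole gene, for AGP19. AGP17, known from a mutant resistant to Agrobacterium, had best scores of 23.05 and 29.51. AGP18, which is needed for megaspore selection in the ovule, lay 1010 bp from a replicate 1 peak of score 26.34, just outside the limit. The lysine-rich genes were thus unlike each other in these lists.

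The AG peptide genes numbered 12, of which 3 had a peak in every list, 4 in 1 or 2 lists and 5 in none. AGP23 (AT3G57690), a gene of only 460 bp, scored 1092.54, 1259.93 and 1126.31 over chromosome 3 from 21383732 to 21385363. All 3 lists covered the whole gene, and the replicate 2 peak overlapped AT3G57710 by 688 bp. AGP15 (AT5G11740) scored 145.43, 113.87 and 48.72 over chromosome 5 from 3784012 to 3785608, higher in replicates 1 and 2 than in 3. AGP16 had peaks of 34.04, 25.6 and 22.83, but its replicate 1 peak lay 328 bp outside the gene on AT2G46320 and did not join the others. Among the rest, AGP13 had 197.44 in replicate 3 alone, AGP24 had 25.14 and 222.44 in replicates 1 and 3, AGP21 had 30.43 in replicate 2 and AGP12 had 22.22 in replicate 1. The replicate 1 peak counted for AGP24 lay 295 bp outside it, on AUG6. AGP14, AGP20, AGP22, AGP40 and AGP41 had no peak, and AGP41 lay 2225 bp from a replicate 1 peak of 1675.83. The chimeric gene AGP31, which encodes a proline-rich wall protein, had 29.21 and 204.89 in replicates 1 and 3, and AGP30, known from roots, had no peak.

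FLA genes are usually sorted by sequence into groups A to D, and the 3 genes with a peak in every list belonged to groups B and C. All 4 group B genes, each over 2000 bp long, had a peak in at least 1 list, against 33.6% of all genes over 2000 bp. FLA17 (AT5G06390) scored 680.45, 506.42 and 599.92 over chromosome 5 from 1952301 to 1955061, and its relative FLA18 had 34.08 and 66.24 in replicates 1 and 2 alone. The replicate 1 peak of 34.08 lay 122 bp outside FLA18, whose body held a peak of 32.18 in that list. FLA15 had 267.52 in replicate 3 alone and FLA16 had 26.94 in replicate 1 alone. FLA17 was thus the sole group B gene with a strong peak in more than 1 list.

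In group C, FLA8 (AT2G45470, also called AGP8) scored 1882.89, 2115.36 and 1915.74 over chromosome 2 from 18742028 to 18744508. FLA10 (AT3G60900), a close relative of FLA8, scored 727.58, 1396.77 and 925.1 over chromosome 3 from 22498713 to 22501410. Both stood at or above percentile 89.3 of every list. FLA2 had 33 and 20.84 in replicates 1 and 2, and FLA1, known from shoot regeneration in culture, FLA3, a pollen gene, FLA5 and FLA14 had no peak.

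Group A had no gene with a peak in every list. FLA11 and FLA12 are known for secondary wall formation in stems: FLA11 had no peak, and FLA12 had peaks off its body of 51.14 and 24.97 in replicates 1 and 3. The FLA12 peaks lay 921 and 311 bp away and did not overlap each other. A region shared by all 3 lists lay on its neighbour HB26, and its replicate 2 and 3 peaks were 1209 and 1194 bp from FLA12. FLA9 had 44.29 and 21.38 in replicates 2 and 3 and FLA7 had 23.98 in replicate 3, while FLA6 and FLA13 had none. FLA13 lay 2235 to 2354 bp from peaks on the seed storage gene CRA1 in all 3 lists. In group D, FLA20 and FLA21 had no peak. SOS5, which the table also calls FLA4 and which acts in root growth under salt, falls outside the naming rule; its body held peaks of 66.51 and 23.12 in replicates 1 and 2.

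**Figure D2:**
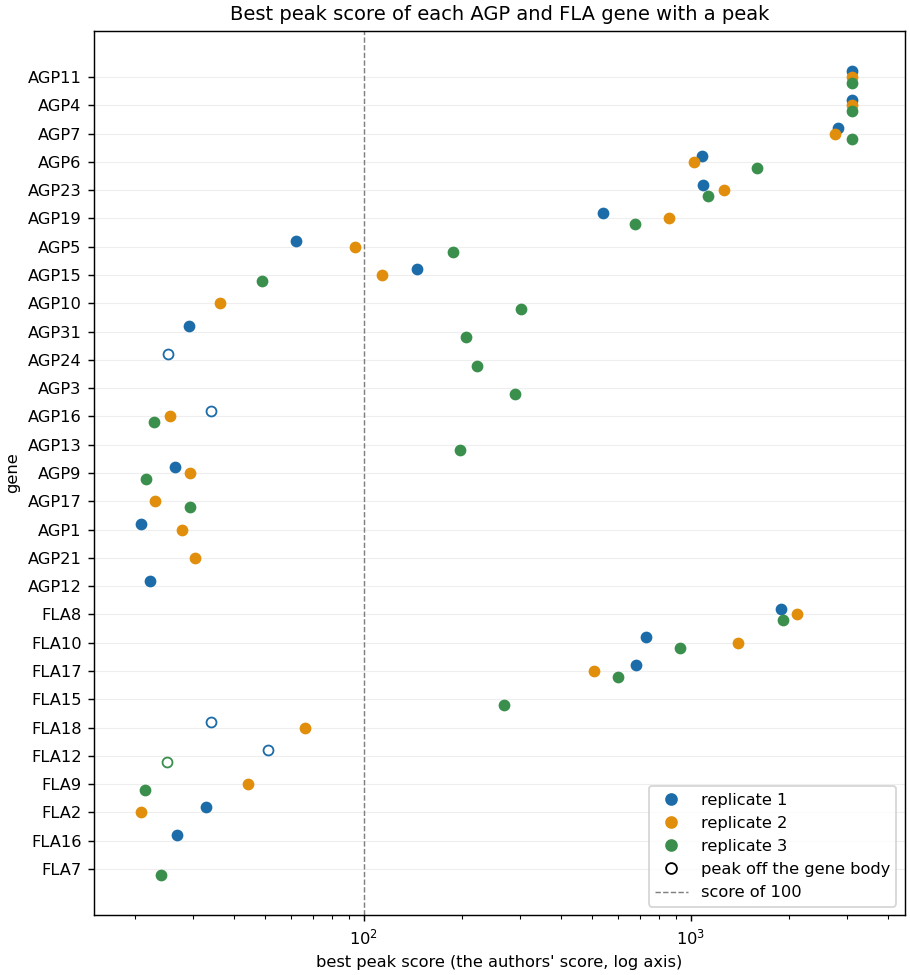
Best peak score (log axis) of the 29 genes with a peak in at least 1 list, by replicate; open circles mark a best peak off the gene body and the dashed line a score of 100. AGP11 and AGP4 sit at 3100 in all 3 lists, while AGP3, AGP5, AGP10, AGP13, AGP24, AGP31 and FLA15 pass the line in replicate 3 alone.

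Those of the 49 genes with a peak had a median best percentile of 66.5, 68.6 and 67.2 in replicates 1, 2 and 3. Over all genes with a peak it was 45.8, 46.8 and 49.4. Best scores of the members ran from near the floor of each list (20.81, 20.84 and 21.38) to 3100. A best score of at least 100 was reached by 10, 10 and 16 of the 49 genes in replicates 1, 2 and 3, against 4.55%, 4.96% and 5.83% of all protein-coding genes. Of the genes with a peak, the median best score was 62.15, 103.92 and 267.52, against 31.24, 38.88 and 99.34 over all genes with a peak. For AGP alone the medians were 103.79, 103.92 and 256.355, and for FLA 51.14, 286.33 and 267.52. The FLA medians rest on 7, 6 and 7 genes. These medians were higher for AGP in replicate 1 and for FLA in replicates 2 and 3. Over all members, a best score of at least 100 was reached by 23.3%, 23.3% and 40% of AGP and by 15.8%, 15.8% and 21.1% of FLA genes, a difference that was not tested.

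Several genes had a strong peak in replicate 3 alone. A score of at least 100 there, with none in the other lists, was seen at 7 of the 49 genes: AGP3, AGP5, AGP10, AGP13, AGP24, AGP31 and FLA15. Of all genes, 1.93% showed this. AGP3, AGP13 and FLA15 had no peak at all in replicates 1 and 2, which together with such a score was the case for 0.492% of all genes. The reverse, a score of at least 100 in replicate 1 or 2 but not 3, was seen at AGP15 alone and at 1.61% of all genes. A fixed score does not divide the lists alike, since 27.5%, 32.0% and 50.4% of nuclear peaks reached 100 in replicates 1, 2 and 3. By percentile the 7 replicate 3 peaks stood between 60.8 and 69.7, and AGP5 stood higher in the other lists than in replicate 3. What part the larger share of replicate 3 peaks above 100 has in these calls was not tested.

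Most peaks of this family reached the gene body. Of the genes with a peak, 18 of 21, 20 of 20 and 22 of 23 had one that reached the body in replicates 1, 2 and 3 (85.7%, 100% and 95.7%). Over all genes with a peak, 68.5%, 71.3% and 62.7% did. As a share of all genes, 14.3%, 12.2% and 7.36% had a peak on the body. A peak in the flank alone was counted at 3, 0 and 1 of the 49 genes, against 6.56%, 4.93% and 4.38% of all genes. These were AGP16, AGP24 and FLA12 in replicate 1 and FLA12 in replicate 3.

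Peak midpoints lay in the body for 18, 19 and 22 genes, against 11.8%, 9.55% and 6.2% of all genes. The replicate 2 exception was AGP23, whose peak reached past the gene to AT3G57710. In replicate 3 all 16 AGP genes with a peak and 6 of 7 FLA genes had a midpoint in the body. The genes are short: the median length was 858 bp for AGP and 1371 bp for FLA, against 2078 bp over all protein-coding genes.

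**Figure D3:**
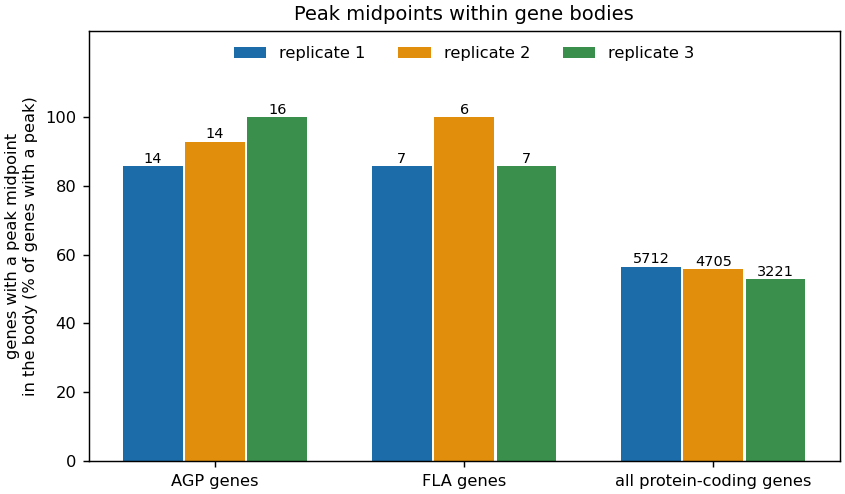
Percentage of the genes with a peak whose body held a peak midpoint, by replicate, with the number of genes with a peak above each bar. AGP and FLA bars lie between 85.7% and 100%, and those of all genes between 52.8% and 56.5%.

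At 12 genes every list had a peak on the body (AGP4, AGP5, AGP6, AGP7, AGP9, AGP11, AGP15, AGP19, AGP23, FLA8, FLA10 and FLA17), against 3.75% of all genes. At these 12 the peaks of the 3 lists also overlapped each other in a shared region. A region shared by all 3 lists, on the body or within 1 kb, was counted at 13 of the 49 genes and at 6.68% of all genes; FLA12 came in through the HB26 region and AGP16 dropped out. On the body alone there were 12, against 4.7% of all genes. At 9 of the 12 the region, which is the union of the peaks, contained the whole gene. The same share over all genes was not computed. The stretch common to the 3 peaks lay wholly in the body at AGP6, AGP7, AGP9, FLA8, FLA10 and FLA17, and 64.4% of it did at AGP19, the lowest share.

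In the 3 FLA genes the common stretch was 757 bp at FLA8, 969 bp at FLA10 and 1399 bp at FLA17. It covered 41.0%, 49.7% and 42.5% of these bodies, with its midpoint at 25.1%, 26.9% and 28.8% of the gene length from the lower-coordinate end. All 3 common stretches thus sat toward the lower-coordinate end, but peaks of single lists reached further. The replicate 2 peak covered FLA8 and FLA10 in full and 77.7% of FLA17. The gene table gives no strand or exons, so whether this is the start or the end of transcription, and which exons or untranslated parts it holds, was not analysed here. In the 9 AGP genes the midpoint lay between 29.1% (AGP5) and 72.4% (AGP15) of the length. At AGP4, AGP19 and AGP23 the common stretch covered the whole gene.

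Peak widths differed between lists at these 12 genes. The replicate 3 peak was the narrowest at 10 of them and the replicate 2 peak the widest at the same 10, the exceptions being AGP5 and AGP9. Median widths were 1510, 2299 and 944 bp in replicates 1, 2 and 3. The whole lists had medians of 699, 880.5 and 652 bp, in the same order. At FLA8 the peak was 2083, 2390 and 757 bp wide, so that replicate 3 covered 41.0% of a gene that the other lists covered in full.

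**Figure D4:**
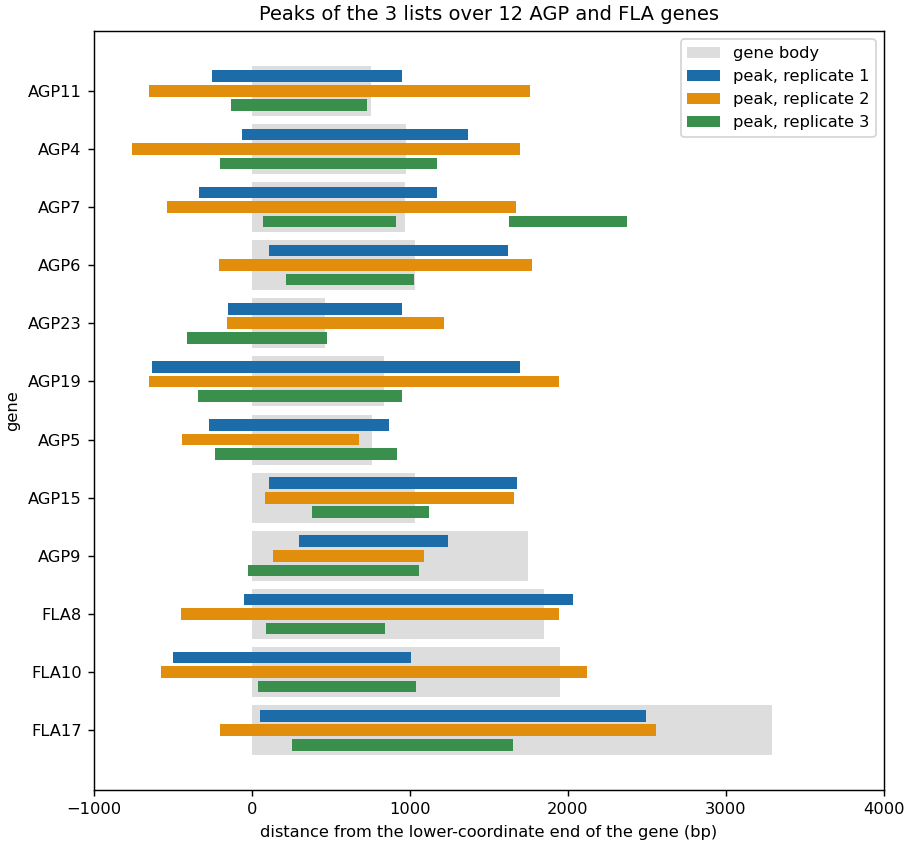
Peaks of the 3 lists (coloured bars) over the 12 genes with a peak on the body in every list, drawn to scale from the lower-coordinate end of each gene (grey, gene body). The replicate 3 peaks are the narrowest except at AGP5 and AGP9, and those of FLA8, FLA10 and FLA17 lie toward the lower-coordinate end.

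Because AGP and FLA genes are short, they were also set beside genes of like length. Among genes under 1000 bp, 6 of 21 AGP and 0 of 2 FLA had a peak in every list, against 6.35% of all genes of that length. From 1000 to 2000 bp, 4 of 9 AGP and 2 of 12 FLA did, against 6.67%. Over 2000 bp there were no AGP genes, and 1 of 5 FLA genes did, against 5.66%. The share over all genes lay between 5.66% and 6.67% in these classes. The 13 genes with a peak in every list had a median length of 1033 bp and the 20 genes with none 996.5 bp. The 49 genes were spread over all 5 chromosomes.

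The distance limit of the counting rule touched few of these genes, while a score limit touched more. Just inside 1 kb were the replicate 1 peak of FLA12 at 921 bp (score 51.14), a second AGP10 peak at 826 bp in replicate 3 (29.04) and a second AGP7 peak at 659 bp in replicate 3 (64.59). Just outside were peaks near AGP18 at 1010 bp (26.34), FLA15 at 1163 bp in replicate 3 (25.16) and FLA12 at 1194 bp in replicate 3 (139.82). With a limit of 2000 bp, AGP17, AGP31 and FLA12 also had a peak in every list, and with bodies alone AGP16 had not. At the floor of the scores, AGP1 (20.81, replicate 1), FLA2 (20.84, replicate 2) and FLA9 (21.38, replicate 3) had the weakest counted best peaks. Others were close to it, such as AGP9 (21.64, replicate 3), AGP12 (22.22, replicate 1) and AGP16 (22.83, replicate 3). A score of at least 100 left 10, 10 and 16 genes of 21, 20 and 23 in replicates 1, 2 and 3, against 4.55%, 4.96% and 5.83% of all genes.

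Genes for making arabinogalactan chains, a list that covers prolyl hydroxylases, glycosyltransferases and methyltransferases along with 3 related chimeric proteins, had peaks at a share near or below that of all genes. Of 25 genes, 3, 4 and 2 had a peak in replicates 1, 2 and 3 (12%, 16% and 8%), against 20.8%, 17.1% and 11.7% of all genes. A peak in at least 1 list was found at 6 of them (24%), against 31.7%, and a peak in every list at 0, against 6.09%. GlcAT14C, a glucuronosyltransferase gene (AT2G37585), had the highest scores, 442.57 and 546.63 in replicates 1 and 2, from a region 479 bp outside it on DOF2.4. XYP2, a xylogen gene, had 20.02 and 109.48 on its body in replicates 2 and 3. AT1G33430 had 108.82 in replicate 3, off its body. The others were GALT31A (26.58 and 20.72 in replicates 1 and 2), FUT4 (20.93 in replicate 1) and XYP1 (21.51 in replicate 2). Both GALT31A peaks overlapped AT1G32928 more than GALT31A, and the replicate 1 peak lay 131 bp outside GALT31A. The prolyl hydroxylase genes P4H2, P4H5 and P4H13 had none.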

How the data were processed

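The submitters' processing notes name build TAIR10, the aligner Bowtie2 2.2.8, SAMtools 1.3 and the peak caller MACS 1.4. For the peak threshold, the use of the input and the handling of multiply mapping reads, settings were not given in the sources used here. Peaks at close relatives such as AGP6 and AGP11 could therefore share reads. The authors deposited 1 list per ChIP sample with a score for each peak, so lists were not pooled. Scores move with depth and were used only within a list; percentiles are the share of nuclear peaks with an equal or lower score, with values above 3100 set to 3100. The 3, 3 and 6 organelle peaks were left out.

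Gene positions came from the RefSeq table (TAIR10.1), whose nuclear frame was taken to be that of TAIR10: 74.0% of the midpoints of the 1780 regions shared by all 3 lists lay in a gene, against 60.1% to 60.7% after shifts of 5000 to 50000 bp. None of its coordinates is printed. Peaks were merged at 1 bp of overlap (Python 3.11.15, pandas 2.3.3). The overlap code was tested on simulated peaks at 200 genes that lay apart from other protein-coding genes. All 100 given peaks in 3 lists within reach were recovered. Of the rest, given peaks beyond 1 kb or in 2 lists only, 0 were called. Genes with close neighbours were not simulated. The synthesis genes were matched by locus tag, 25 of 25.

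Members and lists were chosen with earlier results of these data known. Every AGP and FLA gene is named; of the synthesis list, those with a peak and the 3 P4H genes, the latter chosen after their values were seen. No sequence is shown, and protein features and promoter motifs were not analysed here.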

Additional observations from a re-analysis of the deposited data

How the results depend on the processing

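The counts were repeated with other rules. With a score of at least 100, 10 genes instead of 21 and 10 instead of 20 had a peak in replicates 1 and 2, against 4.55% and 4.96% of all genes. Of these, 10 and 10 had it on the body (18 and 20 without the limit). The share of all genes with such a score on the body was not computed. AGP genes with a peak in every list numbered 6 instead of 10. They also numbered 6 when a peak counted only for its most-overlapped gene. A peak in at least 2 lists was found at 22 genes (15 AGP and 7 FLA), against 11.9% of all genes. A region of at least 2 lists was found at 21 (14 AGP and 7 FLA), and the share of all genes with such a region was not computed. Leaving out each replicate in turn gave 16 genes with a peak in both other lists each time, 11 to 12 AGP and 4 to 5 FLA, with all 13 genes of the full rule among them. Regions then numbered 14 to 16 (10 to 12 AGP, 4 to 6 FLA), and genes with a peak on the body in both lists 13 to 16. For these regions and body peaks the share of all genes was not computed either. Such counts show only how far the member numbers move with the rule. Flanks of 500 or 2000 bp, bodies alone, lists of equal length, midpoints and an overlap of 50% of the shorter peak kept each count within 1.5 times. No paired analysis was possible because the input samples have no values here and no result comes from a test. Depth is unknown, so a gene without a peak was not called at this threshold and may still be bound.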
